A study of Homo sapiens with 4 samples.

Results

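The genes described here encode 10 proteins of the cytotoxic granule: the granzymes GZMA, GZMB, GZMH, GZMK and GZMM, the pore formers PRF1 and GNLY, and SRGN, NKG7 and CTSW. They were taken by symbol and matched to Ensembl identifiers, and all 10 were found among the 61860 genes counted. All 10 also passed the filter on low counts, which 17492 genes did. All libraries came from NK-92 cells, an established human line of natural killer (NK) origin that depends on interleukin 2 (IL-2). Unedited cells (WT) were set against cells named ΔOGT-ISS, in which a splicing silencer within an intron of OGT had been deleted by CRISPR-Cas9. The OGT enzyme adds the sugar O-GlcNAc to intracellular proteins. WT and ΔOGT-ISS each gave 1 library for IL-2 added 48 h ahead of RNA extraction and 1 for IL-2 added 24 h ahead, 4 libraries in all. By the sample labels all 4 received IL-2, although the titles name it only at 24 h. There was 1 edited line, so the deletion and any other property of that line cannot be told apart.

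NK cells and cytotoxic T cells store these proteins in secretory lysosomes and release them onto a bound target. Perforin and granulysin damage membranes, perforin lets the granzymes into the target cell, and the granzymes are serine proteases that cut proteins there. Serglycin, encoded by SRGN, is the proteoglycan core that holds granzymes in the granule, NKG7 is a granule membrane protein needed for full degranulation, and cathepsin W, from CTSW, is a cysteine protease found mainly in NK and cytotoxic T cells.

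The granzyme genes lie in 3 places. GZMA (ENSG00000145649, chromosome 5, 55102648 to 55110252) and GZMK (ENSG00000113088, chromosome 5, 55024253 to 55034570) are neighbours, as are GZMB (ENSG00000100453, chromosome 14, 24630954 to 24634267) and GZMH (ENSG00000100450, chromosome 14, 24606480 to 24609699), while GZMM (ENSG00000197540) is at 544034 to 549924 on chromosome 19, all in GRCh38 by GENCODE release 29. Of the stretches of 50 bases in the GZMB transcript, 6.52% also occur in GZMH, and 6.63% the other way round, so some reads of that pair cannot be told apart. GZMK shares 41.7% of its stretches with AC034238.1, a transcript on the opposite strand that was counted 106 to 162 times a library. The strand setting of the counting is not given in the sources used here, so reads of these partners may be mixed. CTSW overlaps FIBP on the opposite strand at its edge, and FIBP had 310 to 1361 counts.

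The sequences before the starts of GZMA, GZMB and GNLY, which had the largest line differences among the matched genes, are shown beside that of PRF1, which differed little. RefSeq promoters (GRCh38.p14) were matched for 6 of the 10 genes, and the 250 bases before each start were searched on both strands for the RUNX core TGTGGT, the T-box core GTGTGA, the AP-1 site TGANTCA, the STAT site TTCNNNGAA and the TATA box TATAAA. No match of one overlapped a match of another in the 4 sequences printed. Capitals mark the matches, where ACCACA and TCACAC are the RUNX and T-box letters on the other strand, and each sequence stops before the first base that GENCODE places in an exon of the gene. RUNX, T-box and STAT proteins are transcription factors that act in NK cells.
GZMA, chr5:55102396-55102645, plus strand: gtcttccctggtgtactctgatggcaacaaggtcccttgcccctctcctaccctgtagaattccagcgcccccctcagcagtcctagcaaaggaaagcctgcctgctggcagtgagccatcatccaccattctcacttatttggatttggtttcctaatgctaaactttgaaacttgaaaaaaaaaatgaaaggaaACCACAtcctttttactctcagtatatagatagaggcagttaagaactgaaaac
GZMB, chr14:24634268-24634440, minus strand: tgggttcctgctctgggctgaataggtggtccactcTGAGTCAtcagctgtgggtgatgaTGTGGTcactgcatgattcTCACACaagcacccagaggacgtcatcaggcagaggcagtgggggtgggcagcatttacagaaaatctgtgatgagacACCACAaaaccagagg
GNLY, chr2:85694108-85694290, plus strand: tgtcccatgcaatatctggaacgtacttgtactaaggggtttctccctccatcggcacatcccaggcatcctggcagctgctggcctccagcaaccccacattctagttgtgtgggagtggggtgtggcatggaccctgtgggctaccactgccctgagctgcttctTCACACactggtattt
PRF1, chr10:70602776-70602991, minus strand: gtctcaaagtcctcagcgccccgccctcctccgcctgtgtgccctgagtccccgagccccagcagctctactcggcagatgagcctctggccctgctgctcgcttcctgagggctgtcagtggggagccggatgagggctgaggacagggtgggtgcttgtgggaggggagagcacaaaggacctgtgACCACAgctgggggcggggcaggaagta

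The RUNX core was found before 4 of the 6 genes, GZMA, GZMB, PRF1 and GNLY, against 10.98% of 35116 promoters of the same length. In GNLY its match begins 62 bases before the RefSeq start, past the first base that GENCODE places in an exon, and so beyond the stretch printed. The GNLY window, from 85694108, also lies inside the gene as GENCODE places it (85685175 to 85698854). The T-box core was found before GZMB, GNLY and NKG7 (9.90% of all promoters), and the AP-1 site only before GZMB among the 6 (6.57%). The STAT site and the TATA box were found before none of the 6, against 6.57% and 10.7% of all promoters. The GZMH window held none of the 5 motifs. These matches describe letters and not binding.

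The libraries held 10889986 and 11305599 counts at 48 h and 24809269 and 28576566 at 24 h. OGT itself stood at 399 (ΔOGT-ISS) and 446 (WT) CPM (counts scaled to library size, with TMM factors) at 48 h and at 384.0 and 449 CPM at 24 h, a log2 difference of -0.19 (SE 0.16, edgeR adjusted p = 0.862), which does not check the deletion because spliced and intron-holding transcripts are counted together. The cells carried NK markers: 9 of 10 were tested, and summed they stood at 992 and 1646 CPM in ΔOGT-ISS and 1079 and 1787 CPM in WT (48 h and 24 h). Among them TYROBP, an adaptor of NK receptors, fell in ΔOGT-ISS (log2 -2.74, edgeR adjusted p = 0.0242). NCAM1, KLRD1, KLRC1 and IL2RB had line differences of 0.03, -0.04, -0.02 and -0.06 log2 units. The activating receptor genes NCR3 and NCR1 stood at -0.78 (edgeR adjusted p = 0.102) and -0.60 (edgeR adjusted p = 0.277), FCER1G at -0.85 (edgeR adjusted p = 0.796) and CD7 at 0.09, none past the test. The part of these lower NK genes in the granule gene differences was not tested. The NK receptor gene KLRB1 was at or near 0, with at most 0.103 CPM. Of 8 T cell markers 3 were tested and none passed between the lines, with summed levels of 279 and 422 CPM in ΔOGT-ISS and 314 and 447 CPM in WT (48 h and 24 h). CD3D, CD4 and CD8A did not exceed 0.613 CPM, CD8B 1.23 CPM and CD3G 1.69 CPM. CD3E, known in NK cells as well, stood between 187 and 316 CPM, and the T cell receptor genes TRBC1 and TRAC at 67.1 to 115 and 19.9 to 24.0 CPM. All 9 granule proteases of neutrophils and mast cells were under 1 CPM in every library, with ELANE and TPSAB1 at 0 counts. B cell, epithelial and fibroblast markers had no call between the lines, and PAX5, at 52.0 to 80.8 CPM, was the only one of them above 2 CPM. Of 6 myeloid markers 3 were tested and none passed between the lines. Among them CD14, LYZ and FCN1 did not exceed 0.263 CPM. The summed level, mostly S100A9, was 604 and 43.4 CPM in ΔOGT-ISS and 818 and 307 CPM in WT (48 h and 24 h). CSF1R stood at 3.68 CPM in ΔOGT-ISS and 9.46 in WT at 48 h and at 3.52 and 5.61 CPM at 24 h. For S100A8 the values were 16.0 and 29.4 CPM at 48 h and 0.759 and 11.2 CPM at 24 h, in the same order. Both genes were lower in the edited line at both times, and their part in the granule gene differences was not tested. S100A9 stood at 584 CPM in ΔOGT-ISS and 779 in WT at 48 h and at 38.9 and 290.0 CPM at 24 h, lower in the edited line at both times like several granule genes, and its part in their differences was not tested.

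Levels were compared between genes by FPKM, the deposited counts per kilobase of transcript scaled to library size. NKG7 and GZMB were among the highest 3 of the 10 genes in every library. In WT at 48 h the order began with GZMA at 1139 FPKM, NKG7 at 1021 and GZMB at 929, and in WT at 24 h with NKG7 at 1812, GZMB at 1252 and GZMA at 831. The edited line began with GZMB at 963, NKG7 at 856 and GZMA at 604 FPKM at 48 h, and with NKG7 at 1107, CTSW at 496 and GZMB at 372 at 24 h. At the low end, GZMM was last at 48 h, with 6.80 FPKM in ΔOGT-ISS and 7.26 in WT. GZMH was last in the edited line at 24 h, at 24.7 FPKM, and GZMK last in WT at 24 h, at 47.2. With 1 library for each line and time the spread of a level within a condition is unknown, so whether neighbours in these orders differ beyond it is unknown too.

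**Figure D1:**
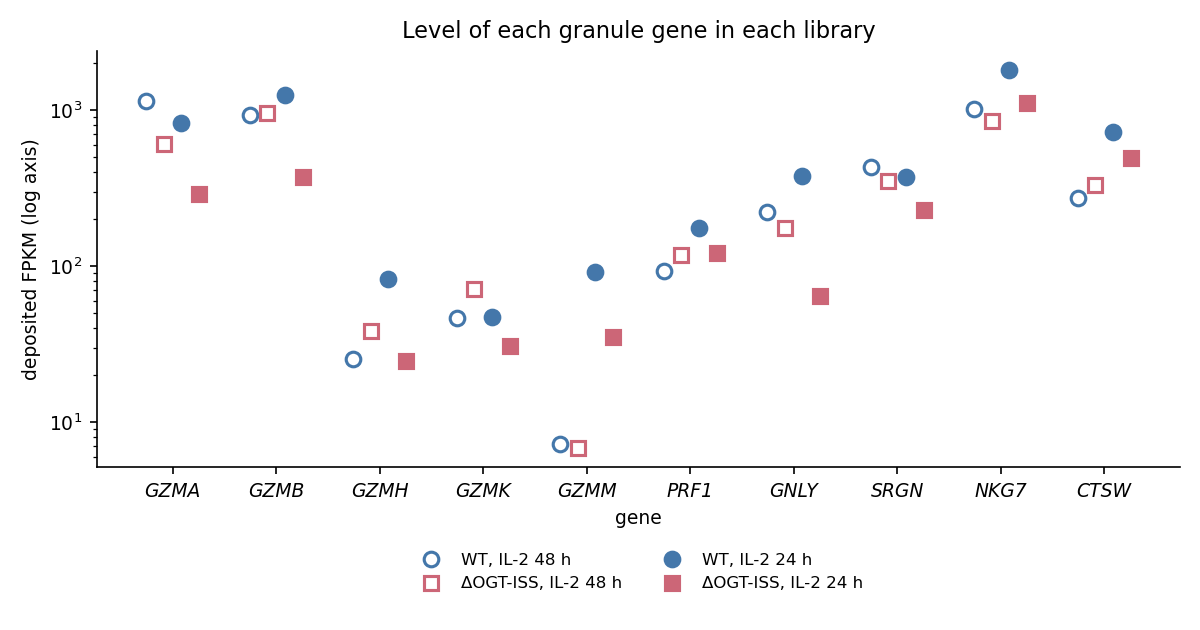
Deposited FPKM (log axis) of the 10 granule genes, with 1 point for each library. WT is drawn as blue circles and ΔOGT-ISS as red squares, open for IL-2 at 48 h and filled for 24 h; the filled red squares lie below the filled blue circles for all 10 genes, and GZMM at 48 h lies lowest of all, at 6.80 and 7.26 FPKM.

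The first question was which granule genes differed between the lines. GZMA fell in ΔOGT-ISS and was the only one of the 10 past the edgeR test, in which 0.463% of all tested genes passed (0.314% as lower). All 10 log2 differences were negative, with a median of -0.60 against 0.02 over all tested genes, where 47.9% were negative. At an unadjusted p under 0.05 there were 6 of the 10 genes, all lower, against 9.08% of tested genes at that level in either direction and 5.59% as lower. The members are regulated in the same cells and are not independent, so these counts describe the group. In bulk RNA, fewer cells that express a gene and less RNA per cell cannot be told apart.

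Granzyme A, a tryptase, cuts after basic residues. GZMA stood at 535 CPM (ΔOGT-ISS) against 1051 CPM (WT) at 48 h, and at 257 against 750 CPM at 24 h. Both edited libraries lay below both WT libraries. The edited line had 0.418 times the WT level over both times (log2 -1.26, SE 0.19, edgeR adjusted p = 0.0479), with a ratio of 0.509 (95% interval 0.494 to 0.526) at 48 h and 0.343 (0.334 to 0.352) at 24 h. These intervals, here and below, cover counting error in 1 library against 1 and no replicate spread. DESeq2 gave -1.27 with an adjusted p of 1.15e-07, and limma on log2(FPKM + 1) gave -1.21 with an adjusted p of 0.432. Between the lines that limma fit, here and below, called 0% of genes tested. Without the IL-2 time term GZMA was not called (-1.18, edgeR adjusted p = 1.00), where 0% of genes tested passed as well. The lost calls in these fits are thus not particular to GZMA. Without each library in turn, WT or ΔOGT-ISS, that term has to be dropped and 1 library is left in that line. The value of GZMA then ran from -1.81 to -0.79.

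Granzyme B, which cuts after aspartate and activates caspases, was level between the lines at 48 h. GZMB stood at 850 CPM in ΔOGT-ISS and 852 in WT at 48 h, and at 327 and 1124 CPM at 24 h. The edited library at 24 h was thus the lowest of the 4 and WT at 24 h the highest. At 48 h the edited line was at 0.997 times WT (0.969 to 1.03), and at 24 h at 0.291 times (0.284 to 0.298). Over both times the log2 difference was -0.89 (SE 0.37, edgeR adjusted p = 0.529), which did not pass. With offsets for GC content and transcript length, where 3.21% of tested genes were called, it passed at -0.90 (SE 0.28, edgeR adjusted p = 0.0387). It also passed with no filter on low counts (-0.94, edgeR adjusted p = 0.00794). DESeq2 gave -0.90 with an SE of 0.79, which did not pass. Limma on log2(FPKM + 1) gave -0.85 with an adjusted p of 0.640.

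GZMH, the close copy of GZMB, changed order between the times. It stood at 35.7 CPM in ΔOGT-ISS and 24.3 in WT at 48 h, and at 22.7 and 77.9 CPM at 24 h. It was at 1.47 times WT (1.25 to 1.72) at 48 h but 0.292 times (0.267 to 0.319) at 24 h. The log2 difference in the additive fit was -0.66, with an SE of 0.48 (edgeR adjusted p = 0.833). The groups overlapped. The 24 h ratios of GZMB and GZMH were near each other. As some stretches of the pair are the same, these may not be fully separate observations, though the 48 h ratios differed.

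GZMK, a tryptase next to GZMA, did not follow its neighbour. It stood at 106 CPM in ΔOGT-ISS and 71.7 in WT at 48 h, and at 45.8 and 71.7 CPM at 24 h. The edited line held both the highest and the lowest value, while the WT libraries were level. The ratios were 1.48 (1.35 to 1.62) and 0.639 (0.594 to 0.686), and the additive fit gave -0.05 (SE 0.27, edgeR adjusted p = 0.986), with a sign that flipped when library size alone was used for scaling.

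GZMM, which prefers methionine and leucine at the cut site, rested on few counts at 48 h. There were 71 counts in ΔOGT-ISS and 73 in WT at 48 h, or 6.22 and 6.91 CPM, and 928 and 2110 counts at 24 h, or 32.0 and 85.7 CPM. Both 24 h libraries lay above both 48 h libraries. No line difference was detectable at the 48 h depth, with a ratio of 0.901 (0.641 to 1.27), while the 24 h ratio was 0.373 (0.345 to 0.404). The additive fit gave -0.90 (SE 0.30, edgeR adjusted p = 0.355), and with the GC and length offsets it was -0.90 with an edgeR adjusted p of 0.0171. It also passed with no filter on low counts (-0.93, edgeR adjusted p = 0.0157). Neither DESeq2 (-0.86, adjusted p = 0.292) nor limma on log2(FPKM + 1) after the filter (-0.72, adjusted p = 0.581) passed.

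Among the pore formers, GNLY and PRF1 differed in size. Granulysin is a saposin-like protein that lyses bacteria and tumour cells. GNLY (ENSG00000115523, chromosome 2, 85685175 to 85698854) stood at 134 CPM in ΔOGT-ISS and 177 in WT at 48 h, and at 49.0 and 295 CPM at 24 h. Both edited libraries lay below both WT libraries. Its 24 h ratio of 0.166 (0.157 to 0.176) was the lowest of the 10 genes, against 0.756 (0.706 to 0.809) at 48 h. The difference over both times, -1.50 log2 units, was the largest of the 10, but its SE of 0.45 kept it short of the test (edgeR adjusted p = 0.287). With the GC and length offsets it passed at -1.51 (SE 0.25, edgeR adjusted p = 1.53e-07), and with DESeq2 it did not (-1.51, SE 0.89, adjusted p = 0.803).

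Perforin is the protein without which granzymes do not reach the target's cytosol. PRF1 (ENSG00000180644, chromosome 10, 70597348 to 70602775) stood at 293 CPM in ΔOGT-ISS and 239 in WT at 48 h, and at 299 and 439 CPM at 24 h. The edited line was level between the times and lay between the WT values. The ratios were 1.22 (1.16 to 1.29) and 0.681 (0.662 to 0.701), and the additive fit gave -0.13 (SE 0.22, edgeR adjusted p = 0.950).

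The matrix and membrane genes showed smaller line differences. SRGN (ENSG00000122862, chromosome 10, 69088106 to 69104811) stood at 420.0 CPM in ΔOGT-ISS and 539.5 in WT at 48 h, and at 276 and 457 CPM at 24 h. NKG7 (ENSG00000105374, chromosome 19, 51371606 to 51372715) stood at 656 and 814 CPM at 48 h and at 844 and 1413 CPM at 24 h. For SRGN both edited libraries lay below both WT libraries, and for NKG7 the edited library at 24 h lay above WT at 48 h. The differences were -0.55 (SE 0.17, edgeR adjusted p = 0.317) for SRGN and -0.53 (SE 0.18, edgeR adjusted p = 0.385) for NKG7. The ratios of SRGN were 0.778 at 48 h and 0.603 at 24 h, and those of NKG7 0.806 and 0.597.

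CTSW (ENSG00000172543, chromosome 11, 65879809 to 65883741) stood at 419 CPM in ΔOGT-ISS and 356 in WT at 48 h, and at 621 and 924 CPM at 24 h. The edited line was higher at 48 h, at 1.18 times WT (1.13 to 1.23), and lower at 24 h, at 0.672 times (0.659 to 0.685). The additive fit gave -0.17 (SE 0.22, edgeR adjusted p = 0.932).

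Set side by side, the line ratio was lower at 24 h than at 48 h for all 10 genes. At 48 h none of the 10 differed by at least 2-fold in either direction, where 8.36% of tested genes were at least 2-fold lower and 13.3% at least 2-fold higher in the edited library. At 24 h GZMA, GZMB, GZMH, GZMM and GNLY were at least 2-fold lower, 5 of 10 against 5.48% of tested genes, and none was higher (2.59%). The median log2 ratio of the 10 was -0.08 at 48 h and -1.08 at 24 h, against 0.02 and 0.00 over all tested genes. From 48 h to 24 h the ratio moved most for GZMH (by -2.33 log2 units), GNLY (-2.19) and GZMB (-1.78) and least for SRGN (-0.37), NKG7 (-0.43) and GZMA (-0.57). Over all tested genes the median of this move was -0.03 and 52.2% were negative. The model with a separate line difference at each time has no residual degree of freedom, so the move between times was not tested. In the additive fit this move is the residual, so it enters the SE of the line difference. GZMA moved by -0.57 with an SE of 0.19, and GNLY by -2.19 with an SE of 0.45. Which of the 10 genes passed therefore depends in part on this move.

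**Figure D2:**
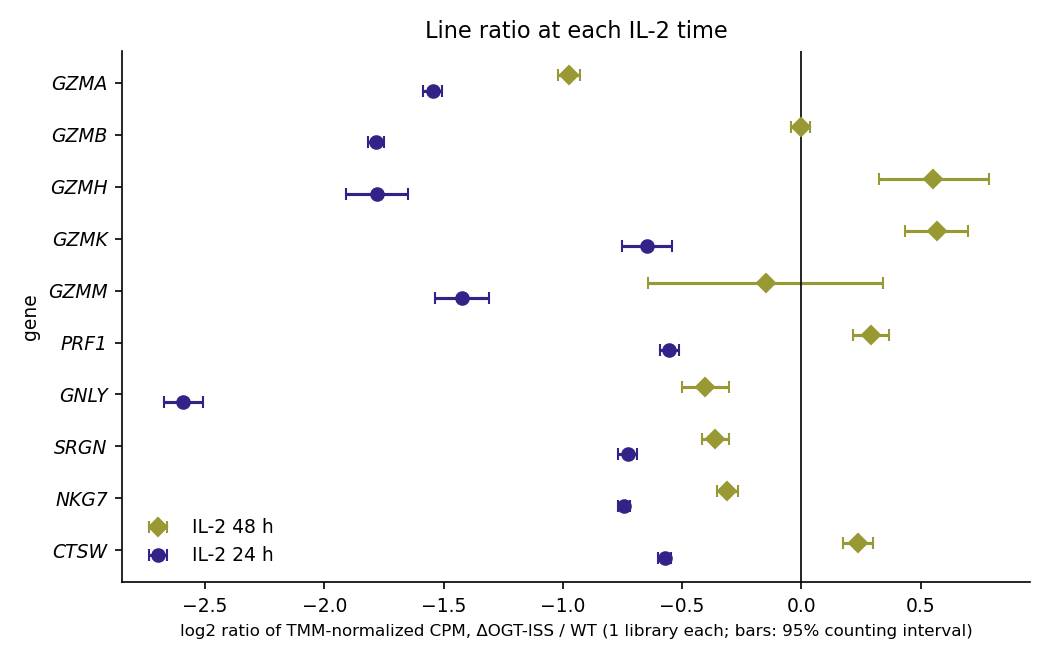
Log2 ratio of ΔOGT-ISS to WT for each granule gene at IL-2 48 h (olive diamonds) and 24 h (dark blue circles), 1 library against 1, with 95% counting intervals. All 10 circles lie below 0, down to -2.59 for GNLY, while the diamonds lie between -0.97 (GZMA) and 0.57 (GZMK).

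The makeup of the granzymes within a library does not depend on how libraries are scaled. GZMA took 52.4% (95% exact binomial interval 51.7 to 53.1) of the counts of the 5 granzyme genes in WT at 48 h and 34.9% (34.2 to 35.6) in ΔOGT-ISS at 48 h. At 24 h it took 35.6% (35.1 to 36.0) in WT and 37.6% (36.9 to 38.2) in ΔOGT-ISS. WT at 48 h thus stood apart, as the only library where GZMA exceeded GZMB. Per length, GZMA was at 1.23 times GZMB in that library, against 0.627 in ΔOGT-ISS at 48 h, 0.663 in WT at 24 h and 0.782 in ΔOGT-ISS at 24 h. GZMK took 6.93% and 6.69% in the edited line at 48 h and 24 h, and 3.57% and 3.40% in WT. GZMM went from 0.406% and 0.344% at 48 h (ΔOGT-ISS and WT) to 4.68% and 4.06% at 24 h. Shares at 24 h and 48 h are still open to the trend with GC content described below. The GZMM time difference was 3.01 log2 units, and 1.60 with offsets for GC content and length. The part of that trend in the shares was not tested. The 10 genes together took 0.349% of all counts in ΔOGT-ISS and 0.401% in WT at 48 h, and 0.281% and 0.559% at 24 h.

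**Figure D3:**
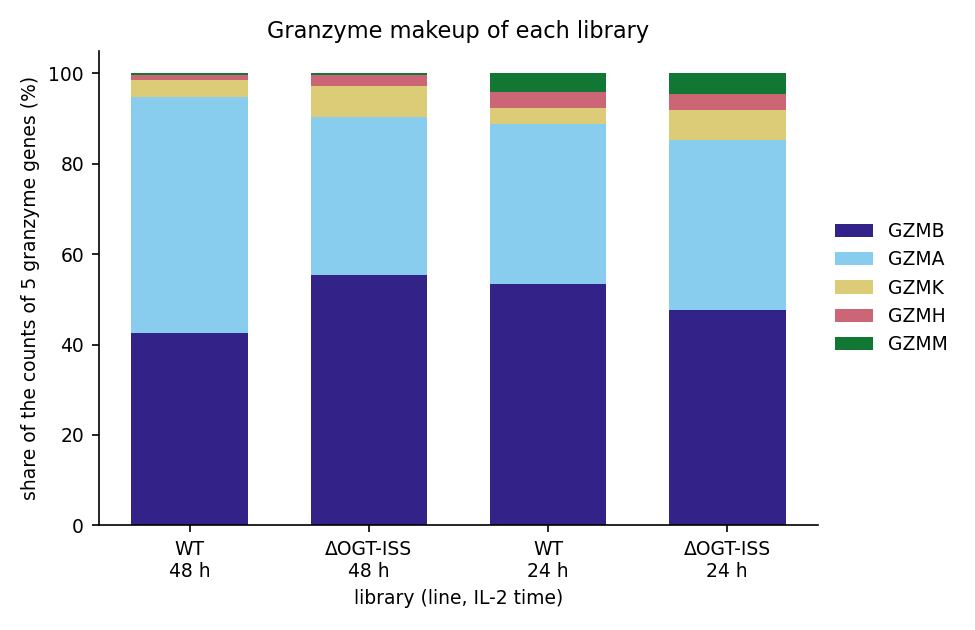
Stacked bars of the share (percent) of the counts of 5 granzyme genes that each gene took in each library. GZMA takes 52.4% in WT at 48 h and between 34.9% and 37.6% in the other libraries, and the GZMM band is a thin edge at 48 h and wider at 24 h.

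The second comparison was IL-2 at 24 h against 48 h over both lines. GZMM and CTSW rose and GZMA fell, 3 of the 10 genes, against 25.9% of tested genes (15% higher, 10.9% lower), so the share is near the background. For GZMM the rise was 8.04-fold, 3.01 log2 units with an SE of 0.31 (edgeR adjusted p = 9.34e-04). Line by line its ratio was 5.14 (4.04 to 6.64) in ΔOGT-ISS and 12.4 (9.83 to 15.9) in WT. CTSW was 1.96-fold higher, 0.97 log2 units with an SE of 0.22 (edgeR adjusted p = 0.0154). GZMA changed by -0.77 log2 units (SE 0.19, edgeR adjusted p = 0.0222). NKG7, at 0.58 (edgeR adjusted p = 0.0507), ended just short. The other 6 genes had values from -0.61 (GZMK) to 0.51 (GZMH) and did not pass. Dropping 1 library also drops the line term and leaves 1 library at that time, so only the values are given. GZMM then ran from 2.35 to 3.78, GZMA from -1.56 to -0.00 and CTSW from 0.75 to 1.33.

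The time also separated libraries of different depth, and over all genes the time difference followed the GC content of the transcripts. With tested genes in 10 equal groups by GC content, the median log2 time difference went from -0.42 in the lowest group to 1.18 in the highest, while the medians of the line difference stayed between -0.00 and 0.04. GZMM, at 66.8% GC, lies in the highest group, and its value was above 94.7% of the genes there. CTSW, PRF1 and NKG7 lie in group 9, whose median was 0.80, so the CTSW value of 0.97 was 0.17 above genes of like GC. SRGN, with 37.7% GC, lies in the lowest group, at its median. GNLY and GZMB lay 0.90 and 0.78 below the medians of their GC groups. With offsets for GC content and length GZMM stayed called at 1.60 (SE 0.26, edgeR adjusted p = 3.37e-08). CTSW then stood at 0.32 (edgeR adjusted p = 0.431) and GZMA at -0.41 (edgeR adjusted p = 0.294), neither past the test, while GNLY passed as lower (-0.84, edgeR adjusted p = 0.00526). IL-2 time and any technical difference between the 24 h and 48 h libraries cannot be told apart here. Each time has its own depth, and the difference between the times follows GC content.

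**Figure D4:**
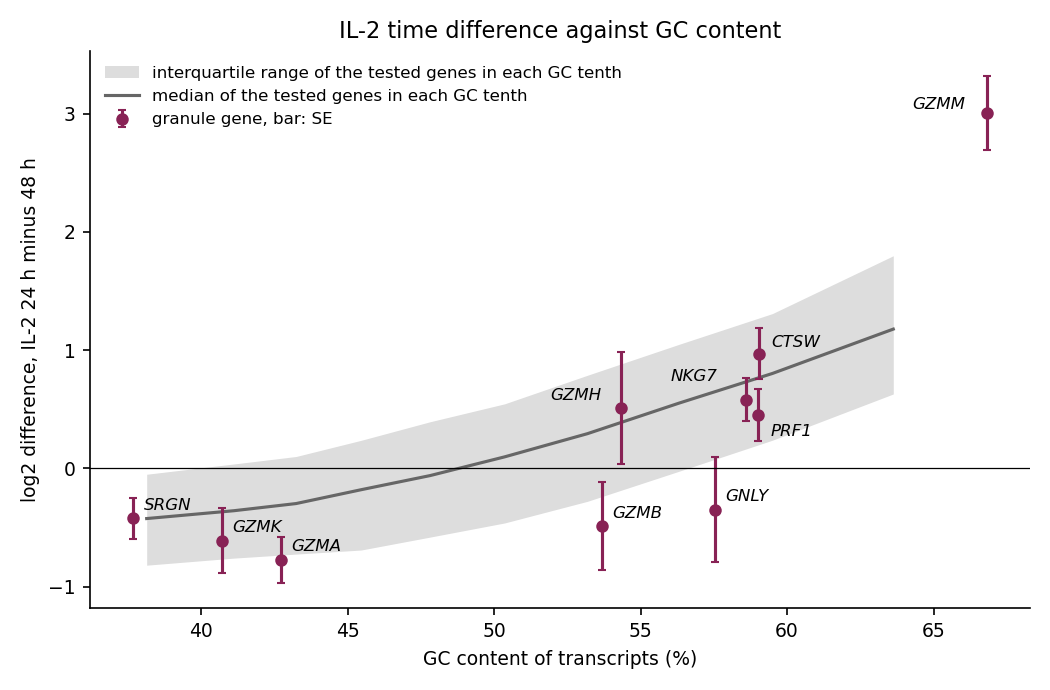
Log2 difference of IL-2 24 h minus 48 h (y axis, over both lines) against GC content of the transcripts in percent (x axis) for the 10 granule genes, with SE bars, over the median (line) and interquartile range (grey) of all tested genes in 10 equal GC groups. The median of all genes climbs from -0.42 to 1.18, and GZMM stands above the band at 3.01.

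Taken line by line, GZMA and SRGN were lower and GZMM, NKG7 and CTSW higher at 24 h in both lines, while GZMB, GNLY and GZMH went opposite ways. Each side is 1 library against 1, and the difference between the lines was not tested. GZMB had a ratio of 24 h to 48 h of 1.32 (1.29 to 1.35) in WT and 0.384 (0.374 to 0.395) in ΔOGT-ISS. GNLY had 1.67 (1.58 to 1.75) in WT and 0.366 (0.340 to 0.394) in ΔOGT-ISS, and GZMH 3.20 (2.81 to 3.66) and 0.637 (0.562 to 0.723). In these 3 genes WT was higher and ΔOGT-ISS lower at 24 h. PRF1 had 1.84 (1.76 to 1.92) in WT and 1.02 (0.982 to 1.06) in ΔOGT-ISS. At least 2-fold lower at 24 h were 4 of the 10 in ΔOGT-ISS (15.2% of tested genes) and none in WT (13.9%). At least 2-fold higher were GZMM alone in ΔOGT-ISS (17% of tested genes) and GZMM, GZMH and CTSW in WT (22.6%). These ratios use the same 4 libraries as the line ratios and are another view of the same values.

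The median line difference of the tested genes within 5 Mb of each member, 35 to 239 genes, lay between -0.10 and 0.09 log2 units. With that median subtracted, GZMA stood at -1.17, GNLY at -1.59, GZMB at -0.91 and GZMM at -0.91. For GZMK the result was 0.05.

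Genes that act on the granule proteins were taken from 4 lists. Of 10 genes for granzyme activation, sorting and inhibition 9 were tested, none passed between the lines, 5 were negative and the median was -0.11. SERPINB1, a protease inhibitor, stood at -0.41 (SE 0.16, edgeR adjusted p = 0.459) and IGF2R, a receptor that sorts granzymes to lysosomes, at -0.38. CTSC, the cathepsin that activates granzymes, stood at 0.24, and the chaperone CALR, which binds perforin, at 0.26. Between the times 3 of the 9 fell (SERPINB1, IGF2R and CALR, at -1.34, -1.25 and -0.62) and none rose, against 10.9% and 15% of tested genes.

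All 12 genes for the granule membrane and release were tested and none passed between the lines, with 7 negative and a median of -0.06. RAB27A, the small GTPase that docks granules at the membrane, had the largest difference of the list. It stood at 189.8 CPM in ΔOGT-ISS and 316 in WT at 48 h and at 158 and 275 CPM at 24 h, a log2 difference of -0.77 (SE 0.16, edgeR adjusted p = 0.102). Both edited libraries lay below both WT libraries. CD63 stood at -0.43, UNC13D, a priming factor for exocytosis, at -0.42 and STXBP2 at 0.33. Over time 5 of the 12 rose, against 15% of tested genes: CD63 (1.30), UNC13D (1.60), STXBP2 (1.55), LAMP1 (0.67) and VAMP8 (0.95), while VAMP7 fell (-0.51).

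Of 6 other killing effectors 5 were tested and none passed between the lines (median -0.49). The cytokine genes TNF, IFNG and LTA stood at -0.81, -0.52 and -0.49 and the death ligand TNFSF10 at 0.56. Between the times TNF, LTA and FASLG, another death ligand, rose (1.89, 1.24 and 1.12) and IFNG fell (-1.73), 3 and 1 of the 5 against 15% and 10.9% of tested genes. Of 11 effector transcription factors, all tested, IRF4 rose in ΔOGT-ISS (log2 1.19, SE 0.16, edgeR adjusted p = 0.0313), where 0.149% of tested genes were called higher, and none fell. Of the 11, 8 were negative, with a median of -0.22. ZNF683, which encodes HOBIT, had the largest value, -2.93 (SE 0.82, edgeR adjusted p = 0.237). It stood at 2.80 CPM in ΔOGT-ISS and 3.31 in WT at 48 h and at 7.28 and 138 CPM at 24 h. WT at 24 h, the highest library for GZMB, GZMH, GZMM, GNLY, PRF1, NKG7 and CTSW, was far highest here too. That library was also highest for EOMES, STAT4, STAT5A, STAT5B and BHLHE40, while TBX21, PRDM1, RUNX3, ETS1 and IRF4 peaked in other libraries. The part of ZNF683 in the granule gene differences was not tested. BHLHE40 and STAT4 stood at -0.65 and -0.51 and neither passed. The T-box factors TBX21 and EOMES stood at -0.00 and -0.36 and RUNX3 at 0.16, none past the test. Over time 7 of the 11 rose and 1 fell, against 15% and 10.9% of tested genes. The part of the GC trend in the time values of these lists was not tested.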

How the data were processed

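Per the labels' protocols, libraries were built with the CORALL V2 kit from total RNA after RiboCop removal of rRNA. The authors deposited raw counts of reads for each Ensembl gene. The submitters' processing notes name hg38, featureCounts 2.0.1, SAMtools 1.15.1 and HISAT2 2.2.0 without saying what each did. The authors' FPKM equal the count scaled by library size and by a transcript length in their table.

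The 10 genes and the gene lists were chosen with earlier results of these data known. Symbols came from the FPKM table, positions and GC content from GENCODE 29 (58308 of 61860 identifiers) and promoters from RefSeq. Counts were tested by the quasi-likelihood method of edgeR 4.0.16 (R 4.3.3), with TMM and filterByExpr (minimum count 10). The model added line to IL-2 time over all 4 libraries, which leaves 1 residual degree of freedom. P-values are two-sided, adjusted by Benjamini-Hochberg over 17492 genes, threshold 0.05. SE was taken as the log2 difference over the root of the F statistic. No source states separate cultures, so the p-values reflect the spread among these 4 libraries alone, which may be technical. With 1 library for each line and time, that spread is how far the line difference changes between the times, pooled in part over genes. Replicate spread cannot be told apart from it. Ratios between single libraries are TMM-scaled, with exact conditional binomial 95% intervals. Medians of ratios over genes used a prior count of 2. DESeq2 1.42.0, limma 3.58.1 on FPKM (at least 1 FPKM in 2 libraries), other scalings, no filter, thinning the 24 h libraries to 10889986 counts, fits without a term or library, and spline offsets for GC and length (known for 16751 tested genes) were alternatives. The edgeR steps were tested on simulated data. Named genes were the 10 members, up to 4 genes of each list with the largest line difference and a mean of at least 5 CPM, and the 3 nearest profiles of 2 members. Other genes of a list were named after their values were seen, to complete a count or to show a marker or a factor whose motif was searched. The time value of 1 gene of the granule release list is not reported here.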

Additional observations from a re-analysis of the deposited data

Results flagged for a closer look

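Several genes lay on opposite sides of 1 in the 2 conditions compared, with counting intervals that did not hold 1, and in each case the difference was not tested because each side is 1 library against 1. The line ratio was above 1 at 48 h and below 1 at 24 h for GZMH, GZMK, PRF1 and CTSW, whose log2 ratios moved by -2.33, -1.21, -0.85 and -0.81. The ratio of 24 h to 48 h was above 1 in WT and below 1 in ΔOGT-ISS for GZMB, GZMH and GNLY, with log2 values in ΔOGT-ISS lower than in WT by -1.78, -2.33 and -2.19. GZMH and GZMB share some stretches of sequence, so they may count as less than separate observations.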

How the results depend on the processing

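Between the lines 1 of the 10 genes was called, GZMA, where 0.463% of tested genes passed. It was also the only 1 called with RLE (0.88% of genes tested), upper-quartile (0.549%) and library-size scaling (0.515%). The same held with the 24 h libraries thinned (1.85%) and with DESeq2 (1.73%). With no filter on low counts 4 were called (GZMA, GZMB, GZMM and GNLY, against 1.25% of genes tested), with GC and length offsets the same 4 (3.21%), and with limma on log2(FPKM + 1) without a filter 4 (GZMA, GZMH, GZMM and GNLY, 1.99%). With limma after the filter, at either pseudocount, and without the IL-2 time term, 0 were called, where 0% of all genes tested passed. Those fits thus do not set the 10 genes apart from others. Leaving out 1 library removes that term and leaves 1 library in that line, and calls from those fits are not counted here. The number of all genes called between the lines ran from 0 to 855 around 81. Over the settings with all libraries GZMA stayed between -1.32 and -1.17 and GNLY between -1.59 and -1.37. The causes of the changed counts were not tested. GZMK turned sign, to 0.0828 without the time term, 7.91e-04 with library size alone, 0.00683 with limma at a pseudocount of 1 (with and without the filter) and 0.00457 at 0.1. Leaving out 1 library, the line difference ran from -0.65 to 0.52 for GZMK, from -1.47 to 0.28 for GZMH, from -2.98 to 1.52 for GZMM, from -0.61 to 0.33 for PRF1 and from -0.87 to 0.58 for CTSW. These fits mix line with time.

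Between the times 3 genes were called, and the same 3 with RLE (27.2% of genes tested) and upper-quartile scaling (26.8%). With no filter there were 5 (GZMM, CTSW, GZMH, NKG7 and PRF1, without GZMA), against 11.2% of genes tested. With limma after the filter there was 1, GZMM, at either pseudocount. There 25.3% of genes tested were called at a pseudocount of 1 and 20.5% at 0.1. With library size alone (26.4%) and with DESeq2 (22%) there were 4, with NKG7 added. Thinning gave 4, with GZMK added (33.2%). Limma with no filter also gave 4: GZMM, CTSW, GZMH and GZMK (12.3%). Without the line term there were 2, GZMM and CTSW (18.8%). The offsets left 2 as well, GZMM and GNLY (18.7%). Leaving out 1 library leaves 1 library at that time, and calls from those fits are not counted here. With the offsets PRF1 turned to -0.23 and NKG7 to -6.12e-04, and GNLY turned to 0.15 without the line term. Leaving out 1 library, GNLY ran from -1.60 to 1.00, GZMB from -1.31 to 0.48, GZMH from -0.33 to 1.45 and SRGN from -0.73 to 0.00603. All genes called between the times ran from 3066 to 5268 around 4535 with all libraries. Of 60 single-time ratios under other scalings, 54 stayed inside their counting interval. Depth limits GZMM most, at 71 and 73 counts at 48 h.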

Other observations

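Profiles over the 4 libraries were compared by the distance between log2 CPM values centred on each gene's mean, among 9854 tested genes averaging 5 CPM or more. The profiles nearest to that of GZMA were those of MBNL2 (a splicing regulator, distance 0.10), PLCB1 (a phospholipase C, 0.22) and S100A11 (a calcium-binding protein, 0.22). MBNL2 stood at 4.73 CPM in ΔOGT-ISS and 8.89 in WT at 48 h and at 2.21 and 6.13 CPM at 24 h. The profiles nearest to that of GZMM, the gene with the widest range, were those of IL9R (a cytokine receptor, 0.28), PTPRF (a receptor phosphatase, 0.50) and RN7SL1 (0.51), the RNA of the signal recognition particle. IL9R stood at 7.71 CPM in ΔOGT-ISS and 7.95 in WT at 48 h and at 45.4 and 125 CPM at 24 h. RN7SL1 stood at 3906 CPM in ΔOGT-ISS and 4384 in WT at 48 h and at 27168 and 44261 CPM at 24 h. It thus differed between the times and also between the lines at 24 h. The part of RN7SL1 in the scaling of the granule gene ratios was not tested. With 4 points a profile, near distances are a description only.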
